A study of Mus musculus with 6 samples.

Results

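Type I interferon-stimulated genes were examined in residual leukemia cells, as 38 genes picked by symbol from general knowledge of the interferon response, and all 38 were among the 23284 genes listed in each library. C1498 cells, described as a mouse acute myeloid leukemia (AML) line of C57BL/6 origin, carried EGFP from a retroviral vector and came from 1 sorted clone. They were injected intravenously into wild-type C57BL/6J mice, which the methods describe as females of 8 to 10 weeks unless stated otherwise. On day 21 marrow was taken from leg and pelvic bones of 3 mice given cytarabine and 3 mice given none, and the GFP+ CD49b+ fraction was sorted for RNA sequencing. The control mice are called untreated in the methods and PBS-treated in the sample records, and every mouse of both groups carried the leukemia. The 6 libraries, 1 per mouse, are called cytarabine 1 to 3 and control 1 to 3. High-dose cytarabine went into the peritoneum in this model. For the paper's imaging it was given on the days just before day 21, and for its survival curves earlier. The dose and injection days of the sequenced mice in particular are not stated.

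Type I interferons, the IFN-α family and IFN-β, bind a receptor made of IFNAR1 and IFNAR2. The kinases JAK1 and TYK2 then act on STAT proteins, among them STAT2, which joins IRF9 in the factor ISGF3. ISGF3 binds the interferon-stimulated response element in promoters and turns on genes that sense viral RNA, block its translation, degrade it or tag proteins with ISG15. Several of these genes also respond to IFN-γ, which acts in part through IRF1, and a low level of them is held in many cells without added interferon.

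Values are FPKM, in which read counts are divided by transcript length and by library size, so that levels of different genes can be set side by side. Steps between low values put the libraries at 11490000 to 18850000 reads, and 3 reads on a transcript of 2000 bases then equal 0.0884 to 0.145 FPKM, a limit of counting error only. Itga2, which encodes the sorting marker CD49b, was lower in all cytarabine libraries than in any control, at 8.12, 7.79 and 7.88 FPKM across cytarabine 1 to 3, against 10.6, 13.3 and 12.8 FPKM across control 1 to 3. The labelled cell type was checked on its markers. Cd3g, a chain of the T cell receptor complex, was at 449 to 652 FPKM, while 5 others of the 8 T cell genes listed stayed under 1 FPKM throughout, Cd4 and Cd8a among them. Cd3e was at 129.6 to 199.3 FPKM. Cd3d was higher in every cytarabine library, at 7.66, 9.99 and 7.705 FPKM across cytarabine 1 to 3, against 3.61, 4.44 and 4.47 FPKM across control 1 to 3. The 7 myeloid markers listed summed to 222, 13.3 and 12.2 FPKM across cytarabine 1 to 3, against 31.1, 40.3 and 38.7 FPKM across control 1 to 3. Of the 7, 3 were lower in all cytarabine libraries than in any control, namely Cd33, Itgam and Csf3r, and Cebpa was at 1.13, 1.82 and 2.18 FPKM under cytarabine, against 1.12, 1.12 and 0.462 FPKM in the controls. The high sum of cytarabine 1 came from Mpo, Elane and Prtn3, at 71.05, 81.7 and 64.3 FPKM. In every library Cd3g alone was above the sum of the 7 myeloid markers, so the markers did not bear out the myeloid label. Cytarabine 2, cytarabine 3 and control 1 stood apart by transcript of colon epithelium, whose 14 markers summed to 323, 4140 and 4586 FPKM across cytarabine 1 to 3, against 2015, 23.7 and 25.2 FPKM across control 1 to 3. Of 9 neutrophil markers 6 were lower in all cytarabine libraries than in any control, and the list summed to 190.3 to 1435 FPKM under cytarabine and 1440 to 2046 FPKM in controls. The NK cell list had 4 of 6 genes higher in every cytarabine library and summed to 57.6 to 74.2 FPKM under cytarabine and 38.3 to 55.6 FPKM in controls, with Ncr1, Eomes and Tbx21 under 1 FPKM throughout. Of all genes tested, 10.9% were higher in every cytarabine library than in any control, and 12.9% were lower. Beside these shares, Itga2 and genes of the neutrophil, myeloid and NK cell lists differed between the treatment groups. The T cell list had 1 of 8 genes higher, and the plasmacytoid dendritic cell list, described further on, had 1 of 7 lower. In the B cell list of 6, Cd79b was higher and Pax5, under 1 FPKM throughout, was lower. Such counts of 1 gene are near the shares of all genes. The part of all these in the members' values was not tested. In sorted bulk RNA, fewer cells of a type and less RNA per cell cannot be told apart.

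Most interferon-stimulated genes had a higher mean with cytarabine, but none passed the adjusted threshold. Testing was limited to genes averaging 1 FPKM or more across the 6 libraries, which kept 34 members and 11703 genes in all. Of the 34, 28 had a log2 fold change above 0, against 49.7% of all genes tested. Their median log2 fold change was 0.29, and that of all genes was -0.00153, on the log2(FPKM + 1) scale, which understates the change of genes at low FPKM. Log2 fold changes are cytarabine minus control throughout and carry their standard error (SE). Of the members 0 reached an adjusted p under 0.05 (limma), as did 0 of all genes tested (0%). At an unadjusted p under 0.05, 7 members (20.6%) were higher and 0 were lower, where 7.6% of all genes were higher and 9.81% lower. The 7 were Parp14, Isg20, Ifih1, Parp9, Zbp1, Eif2ak2 and Rtp4. In 9 of the 34 (26.5%) all cytarabine libraries lay above all controls, against 10.9% of all genes, and in 0 members they all lay below, against 12.9%. The 2 added by this rule were Dhx58 and Stat2. After quantile normalization 4 members were higher at an unadjusted p under 0.05 (Isg20, Ifih1, Parp9 and Parp14), against 6.15% of all genes, and 26 had a log2 fold change above 0, against 40.4%. With 3 mice in each group the exact two-sided permutation test of any 1 gene cannot go below 0.1. Members not tested were Ifit3, Oas2, Mx2 and Ifi44, whose means were under 1 FPKM, and 1 tested member, Ifi204, passed this minimum through its control mean alone.

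**Figure D1:**
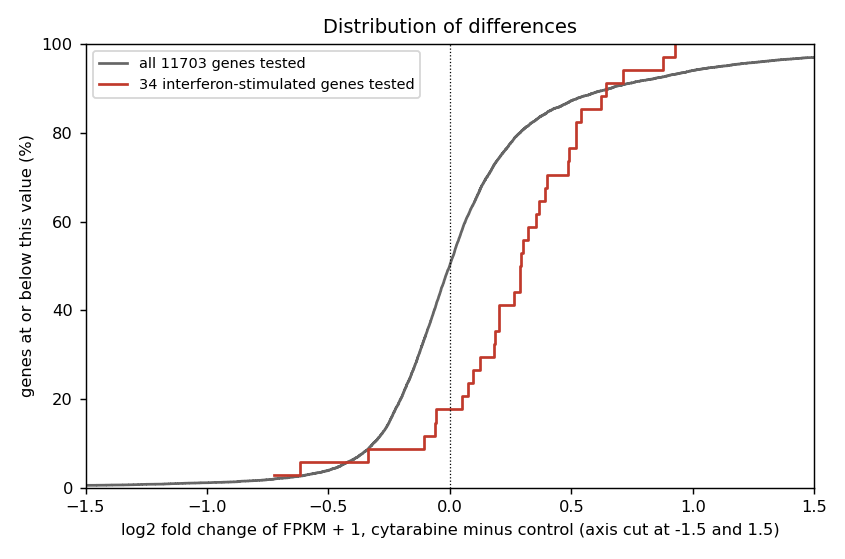
Share of genes (vertical axis, percent) at or below each log2 fold change of FPKM + 1, cytarabine minus control (horizontal axis), for the 34 interferon-stimulated genes tested (red) and all 11703 genes tested (grey). The red line crosses the middle of the scale at 0.29, to the right of the grey line, and crosses it again toward both ends.

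Before the levels of single genes, the element that ISGF3 binds is shown in promoters of members, because the list is defined by that response. RefSeq promoter windows on GRCm38.p6, 250 bases before to 50 after the start, were at hand for 27 of the 38 members. The core searched was GAAA, any 2 bases, then GAAA, on either strand, and overlapping matches each counted. It was in windows of 13 of the 27 members (48.1%) and of 1079 of 27025 genes overall (3.99%). Stretches of 30 bases, read on the strand of the gene with the core in capitals, are given for members described further on, first those without overlap of the groups and then others:
Stat2, chr10:128270266-128270295 (+ strand): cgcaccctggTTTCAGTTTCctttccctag
Ifih1, chr2:62646206-62646235 (- strand): gagaagagaatcGAAACAGAAAccgatctg
Eif2ak2, chr17:78882535-78882564 (- strand): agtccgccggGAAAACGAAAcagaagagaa
Isg15, chr4:156200871-156200900 (- strand): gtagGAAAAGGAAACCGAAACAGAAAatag
Oas1a, chr5:120907523-120907552 (- strand): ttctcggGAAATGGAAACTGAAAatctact
Bst2, chr8:71537580-71537609 (- strand): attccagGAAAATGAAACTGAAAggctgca
Ifit1, chr19:34640785-34640814 (+ strand): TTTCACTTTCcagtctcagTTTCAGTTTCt
Rsad2, chr12:26456553-26456582 (- strand): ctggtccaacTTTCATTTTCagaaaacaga
The core began 222 bases before the start in Stat2, 78 in Isg15, 20 in Oas1a, 130 in Bst2, 104 in Ifit1 and 120 in Rsad2. In Ifih1 and Eif2ak2 it lay just inside the transcribed part, from base 33 and base 19. Isg15 held 3 overlapping matches, Oas1a and Bst2 held 2 each that overlapped, and Ifit1 held 2 apart. In Stat2, Ifit1 and Rsad2 the core read as TTTC repeats, that is, on the opposite strand. The windows of Isg20, Ifit2, Irf7, Irf9, Dtx3l and Oasl1 were among those of 14 members without a match to these letters. Windows of Ddx58, Ifi203, Ifit3, Oas3 and Trim30a also held the core, and their stretches are not shown. Of the members without overlap of the groups, Parp14, Parp9, Zbp1, Dhx58 and Rtp4 had no window and could not be searched.

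**Figure D2:**
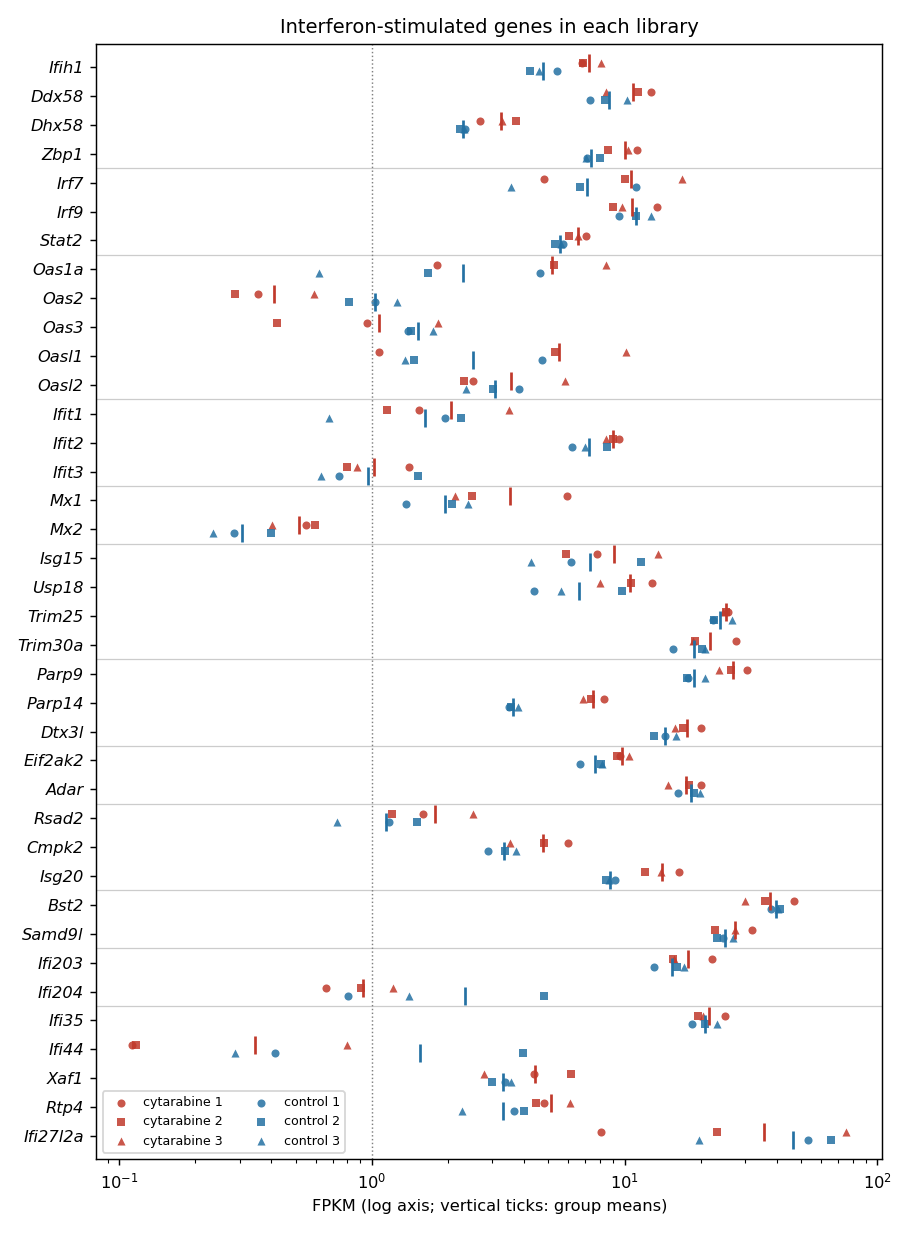
FPKM (log axis) of the 38 interferon-stimulated genes in cytarabine 1 to 3 (red) and control 1 to 3 (blue), with group means as vertical ticks, grey lines between gene families, and a dotted line at 1 FPKM. The red points stand clear of the blue ones for Ifih1, Dhx58, Zbp1, Stat2, Parp9, Parp14, Eif2ak2, Isg20 and Rtp4 among the tested genes, while Irf7, Oas1a, Oasl1 and Ifi27l2a spread widely within both groups.

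Among the sensors of foreign nucleic acid, 3 of 4 were higher in all cytarabine libraries than in any control. Ifih1, which encodes the long double-stranded RNA sensor MDA5, was at 6.8, 6.84 and 8.05 FPKM across cytarabine 1 to 3, against 5.39, 4.24 and 4.61 FPKM across control 1 to 3. Its mean was 1.52 times the control mean, with a log2 fold change of 0.52 ± 0.12 (SE, limma unadjusted p = 0.00513 and adjusted p = 0.166). Zbp1, a sensor of Z-form nucleic acid that can start necroptosis, was at 11.2, 8.597 and 10.3 FPKM under cytarabine, against 7.08, 8.003 and 7.02 FPKM in the controls. The lowest cytarabine value stood just above the top control value, and the log2 fold change was 0.39 ± 0.12 (SE, limma unadjusted p = 0.015 and adjusted p = 0.2). Dhx58, which encodes LGP2, a helper of MDA5, was lower in level, at 2.69, 3.72 and 3.28 FPKM under cytarabine, against 2.35, 2.23 and 2.31 FPKM in the controls. Its log2 fold change was 0.35 ± 0.15 (SE, limma unadjusted p = 0.0586 and adjusted p = 0.299). Ddx58, which encodes RIG-I, was at 12.7, 11.3 and 8.48 FPKM under cytarabine, against 7.31, 8.402 and 10.3 FPKM in the controls, and its groups overlapped because cytarabine 3 lay below control 3. The log2 fold change of Ddx58 was 0.29 ± 0.18 (SE, limma adjusted p = 0.406).

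Of the transcription factor genes among the members, Stat2 alone kept the groups apart. Stat2 was at 7.05, 6.03 and 6.51 FPKM across cytarabine 1 to 3, against 5.71, 5.32 and 5.62 FPKM across control 1 to 3, a narrow range in both groups. Its log2 fold change was 0.20 ± 0.093 (SE, limma unadjusted p = 0.075 and adjusted p = 0.322). Irf9, the DNA-binding partner of STAT2 in ISGF3, was at 13.4, 8.96 and 9.77 FPKM under cytarabine, against 9.53, 11.1 and 12.7 FPKM in the controls. The control values lay inside the range of the cytarabine values, with a log2 fold change of -0.060 ± 0.17 (SE, limma adjusted p = 0.858). Irf7, the factor that amplifies IFN-α transcription, was at 4.81, 10.1 and 16.9 FPKM under cytarabine, against 11.1, 6.64 and 3.56 FPKM in the controls. Its values spread over a wider range within each group than between the group means, and the log2 fold change was 0.48 ± 0.52 (SE, limma adjusted p = 0.605).

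The oligoadenylate synthetases, which make the messenger that activates RNase L, differed among themselves. Oas1a had the largest log2 fold change of all tested members, 0.93 ± 0.62 (SE, limma adjusted p = 0.428), but its groups overlapped. It was at 1.81, 5.26 and 8.47 FPKM across cytarabine 1 to 3, against 4.62, 1.67 and 0.617 FPKM across control 1 to 3. Oasl1, a synthetase-like protein without enzyme activity, was at 1.07, 5.3 and 10.2 FPKM under cytarabine, against 4.71, 1.47 and 1.35 FPKM in the controls. In both genes cytarabine 3, cytarabine 2 and control 1 were the 3 highest libraries, and the same 3 were highest for Irf7. These 3 libraries also held the most colon epithelium transcript. They were the 3 highest for 3 of the 34 members (8.82%), against 17.2% of all genes tested. They were the 3 lowest for 6 members (Irf9, Trim30a, Adar, Bst2, Ifi203 and Ifi35), near the share of all genes, 2015 of 11703. The part of that transcript in these values was not tested. The log2 fold change of Oasl1 was 0.71 ± 0.69 (SE, limma adjusted p = 0.568). Oasl2, which keeps the enzyme domain, was at 2.32 to 5.803 FPKM, with a log2 fold change of 0.095 ± 0.32 (SE, limma adjusted p = 0.877). Oas3, the synthetase that favours long double-stranded RNA, was at 0.961, 0.42 and 1.83 FPKM under cytarabine, against 1.395, 1.43 and 1.74 FPKM in the controls. Its log2 fold change of -0.34 ± 0.32 (SE, limma adjusted p = 0.553) lay on the other side of 0. Oas2 was at 0.353, 0.288 and 0.591 FPKM under cytarabine, against 1.03, 0.813 and 1.25 FPKM in the controls, so that each cytarabine library lay below all controls, but its mean was under the minimum for testing. Of the stretches of 75 bases in Oas1a transcripts, 47.6% also occur in Oas1g, so reads could have been divided between these copies.

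The IFIT proteins bind viral RNA at its 5′ end, and the 3 IFIT genes among the members lie together on chromosome 19. Ifit2, at chromosome 19 from 34550694 to 34576419 on GRCm38, was at 9.53, 9.03 and 8.43 FPKM across cytarabine 1 to 3, against 6.19, 8.55 and 6.96 FPKM across control 1 to 3. Only control 2 reached into the range of the cytarabine values, and the log2 fold change was 0.29 ± 0.13 (SE, limma unadjusted p = 0.0626 and adjusted p = 0.306). Ifit1 was at 1.53, 1.15 and 3.496 FPKM under cytarabine, against 1.96, 2.25 and 0.676 FPKM in the controls, with both groups covering much the same range and a log2 fold change of 0.20 ± 0.40 (SE, limma adjusted p = 0.787). Ifit3 was at 1.402, 0.794 and 0.874 FPKM under cytarabine, against 0.742, 1.53 and 0.628 FPKM in the controls, too low for testing, and 41.1% of its stretches of 75 bases also occur in Ifit3b. The MX GTPases trap viral particles, and many laboratory strains carry Mx genes without function. Mx1 was at 5.94, 2.49 and 2.12 FPKM under cytarabine, against 1.36, 2.07 and 2.41 FPKM in the controls. The high value was that of cytarabine 1 alone, and the log2 fold change of Mx1 was 0.54 ± 0.35 (SE, limma adjusted p = 0.419). Mx2, not tested, was at 0.5504, 0.594 and 0.404 FPKM under cytarabine, against 0.285, 0.399 and 0.235 FPKM in the controls, so that each cytarabine library lay above all controls, cytarabine 3 and control 2 being almost equal.

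In the ISG15 system no member kept the groups apart. Isg15, a ubiquitin-like protein that is joined to others during the response, was at 7.77, 5.86 and 13.6 FPKM across cytarabine 1 to 3, against 6.12, 11.6 and 4.26 FPKM across control 1 to 3. Cytarabine 3 and control 2 were its high libraries, and the log2 fold change was 0.30 ± 0.41 (SE, limma adjusted p = 0.686). Usp18, the protease that removes ISG15 and also blocks the receptor IFNAR2, was at 12.9, 10.6 and 8.01 FPKM under cytarabine, against 4.38, 9.77 and 5.59 FPKM in the controls. Control 2 lay within the cytarabine range, and the log2 fold change of Usp18 was 0.64 ± 0.30 (SE, limma unadjusted p = 0.0734 and adjusted p = 0.32). Trim25, a ligase that activates RIG-I, varied little, at 22.3 to 26.6 FPKM with a log2 fold change of 0.074 ± 0.084 (SE, limma adjusted p = 0.625). Trim30a was at 27.6, 18.9 and 18.6 FPKM under cytarabine, against 15.5, 20.3 and 20.8 FPKM in the controls, and its log2 fold change was 0.18 ± 0.19 (SE, limma adjusted p = 0.595).

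Of all tested members Parp14 had the lowest p. Parp14, an ADP-ribosyltransferase, was at 8.26, 7.35 and 6.86 FPKM across cytarabine 1 to 3, against 3.48, 3.55 and 3.804 FPKM across control 1 to 3. All cytarabine values were close to one another, all control values were closer still, and the gap between the groups was wide. The mean was 7.49 ± 0.711 FPKM (SD, n = 3 mice) with cytarabine against 3.61 ± 0.169 FPKM (SD, n = 3) in controls, a ratio of 2.07, and the log2 fold change was 0.88 ± 0.10 (SE, limma unadjusted p = 1.68e-04 and adjusted p = 0.132). Parp9, the partner of the ubiquitin ligase DTX3L, was at 30.5, 26.3 and 23.6 FPKM across cytarabine 1 to 3, against 17.8, 17.7 and 20.8 FPKM across control 1 to 3. Its groups were apart as well, with a log2 fold change of 0.49 ± 0.12 (SE, limma unadjusted p = 0.00611 and adjusted p = 0.166). Dtx3l was at 20.1, 17.04 and 15.9 FPKM under cytarabine, against 14.4, 13.1 and 16.03 FPKM in the controls. Cytarabine 3 lay slightly below control 3, and the log2 fold change of Dtx3l was 0.26 ± 0.12 (SE, limma unadjusted p = 0.0644 and adjusted p = 0.309). The 3 genes are neighbours on chromosome 16 of GRCm38, Parp14 from 35832874 to 35871544, Dtx3l from 35926511 to 35939151 and Parp9 from 35938470 to 35972605. Dtx3l and Parp9 run in opposite directions and overlap by 681 bases at their starts. The libraries were made with a stranded kit, and whether the counting used the strand is not given in the sources used here.

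The enzymes that meet double-stranded RNA differed from each other. Eif2ak2, which encodes the kinase PKR that halts translation, was at 9.64, 9.33 and 10.4 FPKM across cytarabine 1 to 3, against 6.67, 8.1 and 8.16 FPKM across control 1 to 3. The groups were apart, with a log2 fold change of 0.32 ± 0.10 (SE, limma unadjusted p = 0.0198 and adjusted p = 0.215). Adar, which edits adenosine to inosine in such RNA, was at 20.03, 17.9 and 14.8 FPKM under cytarabine, against 16.2, 18.8 and 19.9 FPKM in the controls, and its log2 fold change was -0.059 ± 0.13 (SE, limma adjusted p = 0.814). Isg20, an exonuclease that degrades RNA, was at 16.4, 12.1 and 13.9 FPKM across cytarabine 1 to 3, against 9.13, 8.46 and 8.71 FPKM across control 1 to 3. The control values of Isg20 lay within a narrow band under every cytarabine value. Its mean was 14.1 ± 2.196 FPKM (SD, n = 3 mice) with cytarabine against 8.77 ± 0.342 FPKM (SD, n = 3) in controls, and the log2 fold change was 0.62 ± 0.12 (SE, limma unadjusted p = 0.00209 and adjusted p = 0.14). Rsad2, which encodes viperin and makes a nucleotide that stops viral polymerases, was at 1.59, 1.21 and 2.52 FPKM under cytarabine, against 1.17, 1.505 and 0.725 FPKM in the controls. Cmpk2, the kinase that supplies nucleotides to viperin, was at 5.97, 4.801 and 3.52 FPKM under cytarabine, against 2.88, 3.37 and 3.71 FPKM in the controls. The groups of both genes overlapped, with log2 fold changes of 0.37 ± 0.28 (SE, limma adjusted p = 0.481) for Rsad2 and 0.40 ± 0.19 (SE, limma adjusted p = 0.334) for Cmpk2. The pair lies head to head on chromosome 12, with 12752 bases between the starts.

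**Figure D3:**
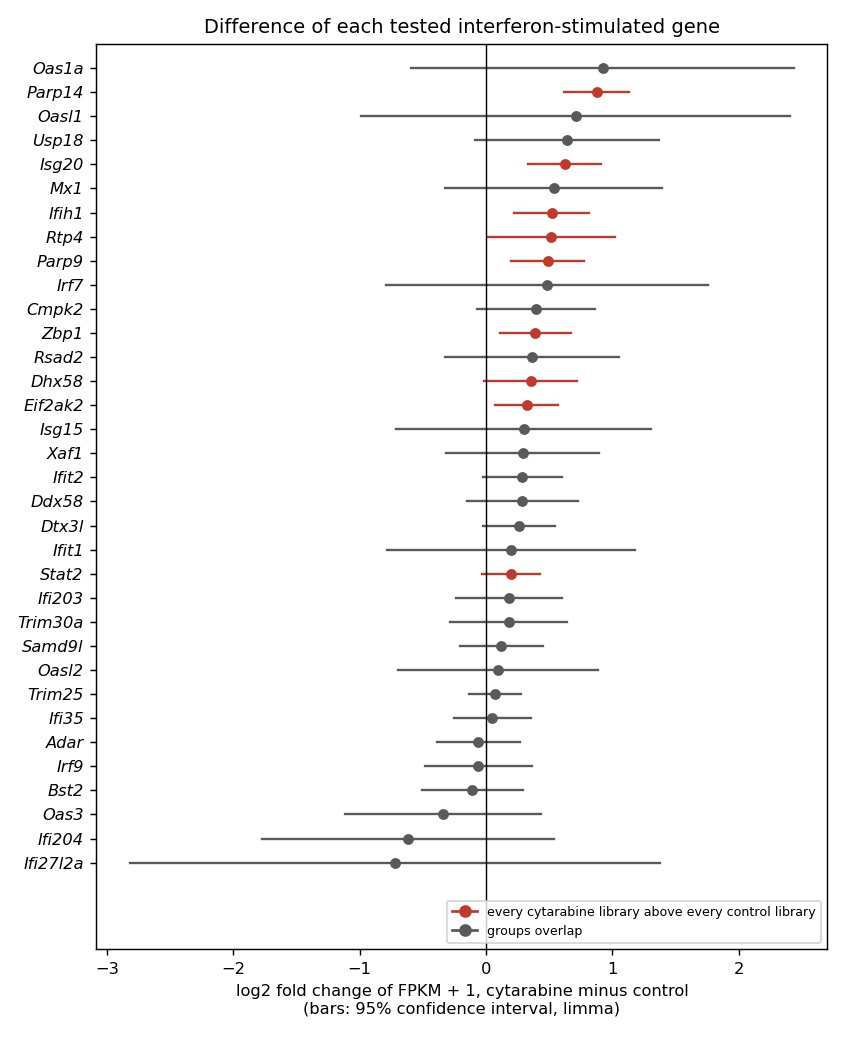
Log2 fold change of FPKM + 1, cytarabine minus control (horizontal axis), of the 34 tested interferon-stimulated genes, with 95% confidence intervals from limma, 3 mice in each group. Red marks the 9 genes without overlap of the groups, from Parp14 at 0.88 to Stat2 at 0.20, and the 4 widest intervals are those of Oas1a, Oasl1, Irf7 and Ifi27l2a.

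The most abundant members by mean FPKM were Ifi27l2a, Bst2 and Samd9l. Bst2, which encodes tetherin and holds budding virus at the membrane, was at 46.9, 35.9 and 29.9 FPKM across cytarabine 1 to 3, against 37.97, 41.4 and 40.4 FPKM across control 1 to 3. The control values of Bst2 lay inside the wider cytarabine range, and the log2 fold change was -0.11 ± 0.16 (SE, limma adjusted p = 0.714). Samd9l, a restriction factor that lowers translation, was at 31.9, 22.8 and 27.5 FPKM under cytarabine, against 24.5, 23.2 and 26.98 FPKM in the controls, with a log2 fold change of 0.12 ± 0.13 (SE, limma adjusted p = 0.607). Ifi27l2a, a small membrane protein, was at 8.05, 23.1 and 75.4 FPKM across cytarabine 1 to 3, against 53.2, 65.9 and 19.7 FPKM across control 1 to 3. Cytarabine 3, control 2 and control 1 were the high libraries of Ifi27l2a, and its log2 fold change was -0.72 ± 0.85 (SE, limma adjusted p = 0.638). The 9 heart markers were highest in these same 3 libraries, with sums of 7.998, 22.6 and 795 FPKM across cytarabine 1 to 3, against 3039, 628 and 60.9 FPKM across control 1 to 3, and their part in the level of Ifi27l2a was not tested.

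Of the p200 family, whose proteins bind DNA, Ifi203 was at 22.2, 15.5 and 15.7 FPKM under cytarabine, against 13.1, 16.1 and 17.2 FPKM in the controls, with a log2 fold change of 0.19 ± 0.17 (SE, limma adjusted p = 0.547). Ifi204 was at 0.656, 0.908 and 1.21 FPKM under cytarabine, against 0.804, 4.81 and 1.41 FPKM in the controls, and control 2 was far above the other 5 libraries, with a log2 fold change of -0.62 ± 0.47 (SE, limma adjusted p = 0.48). Ifi44, not tested, showed the same pattern at 0.113, 0.117 and 0.8004 FPKM under cytarabine, against 0.414, 3.96 and 0.288 FPKM in the controls. Control 2 was also the library with the most macrophage transcript, as the 7 macrophage markers listed summed to 12.6, 56.6 and 47.2 FPKM across cytarabine 1 to 3, against 32.3, 149 and 12.6 FPKM across control 1 to 3. The part of macrophage RNA in Ifi204 and Ifi44 was not tested. Of the stretches of 75 bases in Ifi204, 13.2% occur in other genes of its family.

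Rtp4, a chaperone of receptors, was at 4.79, 4.47 and 6.06 FPKM across cytarabine 1 to 3, against 3.64, 4.004 and 2.28 FPKM across control 1 to 3. Of its stretches of 75 bases, 10.5% occur in another gene. The groups of Rtp4 were apart by a small gap, with a log2 fold change of 0.52 ± 0.20 (SE, limma unadjusted p = 0.0449 and adjusted p = 0.278). Xaf1, a partner of the apoptosis inhibitor XIAP, was at 4.39, 6.12 and 2.77 FPKM under cytarabine, against 3.36, 2.99 and 3.54 FPKM in the controls, and its log2 fold change was 0.29 ± 0.25 (SE, limma adjusted p = 0.516). Ifi35 was at 24.9, 19.6 and 20.5 FPKM under cytarabine, against 18.5, 20.9 and 23.2 FPKM in the controls, with overlapping groups and a log2 fold change of 0.051 ± 0.12 (SE, limma adjusted p = 0.831).

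Members differed in which library was high. Cytarabine 1 had the top value for 18 of the 34 tested members, against 19.3% of all genes tested, and cytarabine 3 for 12, against 18.3%. Cytarabine 2 had it for 2, against 15.4%, and controls 1, 2 and 3 for 0, 1 and 1, against 11.2%, 11.7% and 24.1%. The lowest value fell in control 1 for 11 members, against 16.3% of all genes. It fell in control 2 for 6 and in control 3 for 7, shares near those of all genes (13.1% and 17.2%). In cytarabine 1, 2 and 3 it fell for 3, 4 and 3 members, against 11.5%, 21.3% and 20.6%. The median deviation of the members from their mean over the 6 libraries was 0.19, 0.023 and 0.088 on the log2 scale in cytarabine 1, 2 and 3, and -0.15, -0.086 and -0.090 in control 1, 2 and 3. All 3 medians were thus above 0 with cytarabine and below 0 in controls. Genes high in cytarabine 1 were Mx1, Usp18, Cmpk2, Ddx58, Trim30a and Ifi203, and genes high in cytarabine 3 were Oas1a, Oasl1, Irf7, Ifit1, Oasl2 and Isg15.

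**Figure D4:**
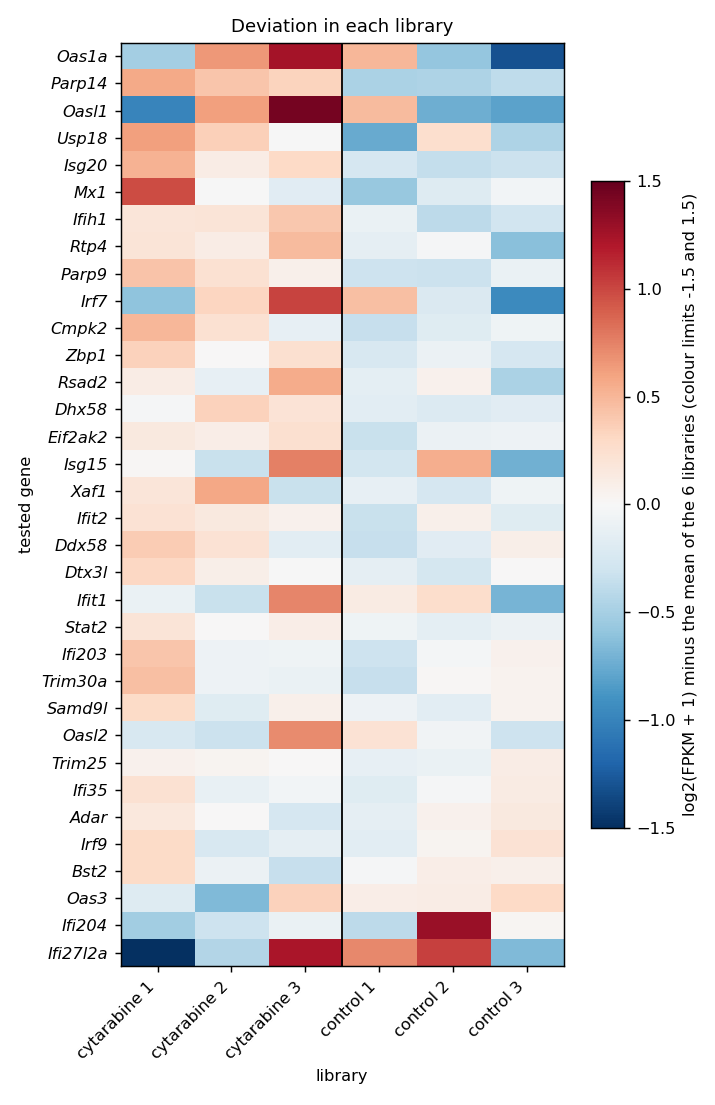
Deviation of log2(FPKM + 1) of each tested interferon-stimulated gene (rows, ordered by log2 fold change) from its mean over the 6 libraries (columns, cytarabine left of the line), red above and blue below the mean, with colours limited at -1.5 and 1.5. Parp14, Isg20, Ifih1 and Parp9 are red in all 3 cytarabine columns, Mx1 is red mainly in cytarabine 1, and Oas1a, Oasl1 and Irf7 are red in cytarabine 2, cytarabine 3 and control 1.

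Because colon transcript crossed the groups, the members were also compared separately in the 3 libraries with the least and the 3 with the most of it. This did not hold colon transcript constant, as cytarabine 1 had 323 FPKM of its markers against 23.7 and 25.2 FPKM in control 2 and 3, and cytarabine 2 and 3 had more than control 1. In the 3 libraries with the least, cytarabine 1 against control 2 and 3, the median difference of the 34 members was 0.32 on the log2 scale, and 28 were above 0. In the 3 with the most, where cytarabine 2 and 3 were set against control 1, the median was 0.31, and 29 were above 0. Over all 11703 genes tested the 2 medians were 0.0073 and 0.0064, with 6040 and 5965 genes above 0. Both differences were above 0 for 26 members (76.5%), against 35.6% of all genes tested, and each comparison had 1 library on one side. Parp14 differed by 0.99 and 0.85 in the 2 comparisons, Parp9 by 0.64 and 0.47, Isg20 by 0.86 and 0.46, and Usp18 by 0.72 and 0.93. Oasl1 differed by -0.22 and 0.55, in opposite directions. With this division as a term in the fit, chosen once the data had been seen, 14 members were higher at an unadjusted p under 0.05 from limma, against 14.4% of all genes, and Parp14 (adjusted p = 0.0259) and Parp9 (adjusted p = 0.0492) passed the adjusted threshold, as 3.24% of all genes did. Another rule placed the division at the widest gap in colon transcript, which put control 2 and 3 alone on one side, so that the difference came from control 1 against the cytarabine libraries. In that fit 6 members were higher at an unadjusted p under 0.05, against 4.73% of all genes. With the log2 sum of the colon markers as a covariate, likewise added later, 13 members were higher, against 7.56%. In the last 2 fits Oas1a, Oasl1 and Irf7 had log2 fold changes below 0.

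Leaving out each library in turn, Parp14, Isg20, Ifih1 and Parp9 were higher at an unadjusted p under 0.05 from limma in all 6 fits. Single fits called 5.02% to 17.5% of all genes higher, most without cytarabine 1. The share of all genes called in all 6 was not counted. These fits share most of their libraries with the full fit, so they are no separate support. Zbp1 was in 5, and missed it without control 3 (unadjusted p = 0.0524 from limma). Eif2ak2 was in 5, and missed it without cytarabine 3 (unadjusted p = 0.0644 from limma). Rtp4 was called in 1 of the 6, without control 2, and its log2 fold change ranged from 0.33 to 0.64. Across the 6 fits 27 to 30 of the 33 to 36 members tested had log2 fold changes above 0, against 47.7% to 51.5% of all genes. For Parp14 the log2 fold change ran from 0.81 to 0.93.

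The genes upstream of the members were then examined. Of 17 interferon ligand genes listed, among them Ifnb1 and Ifng, none reached 1 FPKM in any library, and Ifnb1, Ifng and every listed Ifna gene were listed at 0. The receptor genes were present in both groups. Ifnar1 was at 11.7, 10.7 and 9.78 FPKM under cytarabine, against 10.2, 9.08 and 10.4 FPKM in the controls, with a log2 fold change of 0.11 ± 0.095 (SE, limma adjusted p = 0.536). Ifnar2 was at 39.1, 34.5 and 29.4 FPKM under cytarabine, against 27.2, 29.5 and 31.8 FPKM in the controls, with a log2 fold change of 0.20 ± 0.12 (SE, limma adjusted p = 0.391). Of 27 other pathway genes tested, 0 reached an adjusted p under 0.05 (limma), 5 (18.5%) were higher and 0 were lower at an unadjusted p under 0.05, and 8 (29.6%) were higher and 1 was lower without overlap of the groups. The shares of all genes are those given above for the members.

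The 5 higher genes were Jak1, Irf1, Socs1, Jak2 and Il10rb. Socs1, an inhibitor of JAK kinases that is itself induced by interferon, was at 20.2, 14.4 and 8.92 FPKM across cytarabine 1 to 3, against 6.02, 5.01 and 5.64 FPKM across control 1 to 3. Every cytarabine value was above every control value, cytarabine 1 most of all, with a log2 fold change of 1.18 ± 0.28 (SE, limma unadjusted p = 0.00547 and adjusted p = 0.166). Irf1, the factor typical of IFN-γ responses, was at 99.1, 82.1 and 64.5 FPKM across cytarabine 1 to 3, against 51.4, 49.5 and 49.2 FPKM across control 1 to 3. The control values were nearly equal, and the log2 fold change was 0.68 ± 0.15 (SE, limma unadjusted p = 0.00487 and adjusted p = 0.161). Jak1, the kinase on the IFNAR2 chain, was at 95.9, 95.5 and 96.8 FPKM under cytarabine, against 78.8, 80.2 and 81.6 FPKM in the controls, with a log2 fold change of 0.26 ± 0.048 (SE, limma unadjusted p = 0.00187 and adjusted p = 0.137). Jak2, a kinase of the IFN-γ receptor, was at 21.6, 20.6 and 24.1 FPKM under cytarabine, against 17.2, 18.4 and 17.6 FPKM in the controls, with a log2 fold change of 0.30 ± 0.078 (SE, limma unadjusted p = 0.00913 and adjusted p = 0.182). Il10rb, a chain shared by the receptors of IL-10 and IFN-λ, was at 19.2, 19.4 and 21.1 FPKM under cytarabine, against 18.3, 14.98 and 14.8 FPKM in the controls, with a log2 fold change of 0.30 ± 0.10 (SE, limma unadjusted p = 0.0242 and adjusted p = 0.229). Mavs, the adaptor of the RNA sensors, was the gene lower in every cytarabine library, at 24.4, 21.2 and 23.2 FPKM under cytarabine, against 24.8, 26.1 and 28.3 FPKM in the controls. Mavs, named here after its values were seen, had a log2 fold change of -0.20 ± 0.084 (SE, limma unadjusted p = 0.0585 and adjusted p = 0.298).

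**Figure D5:**
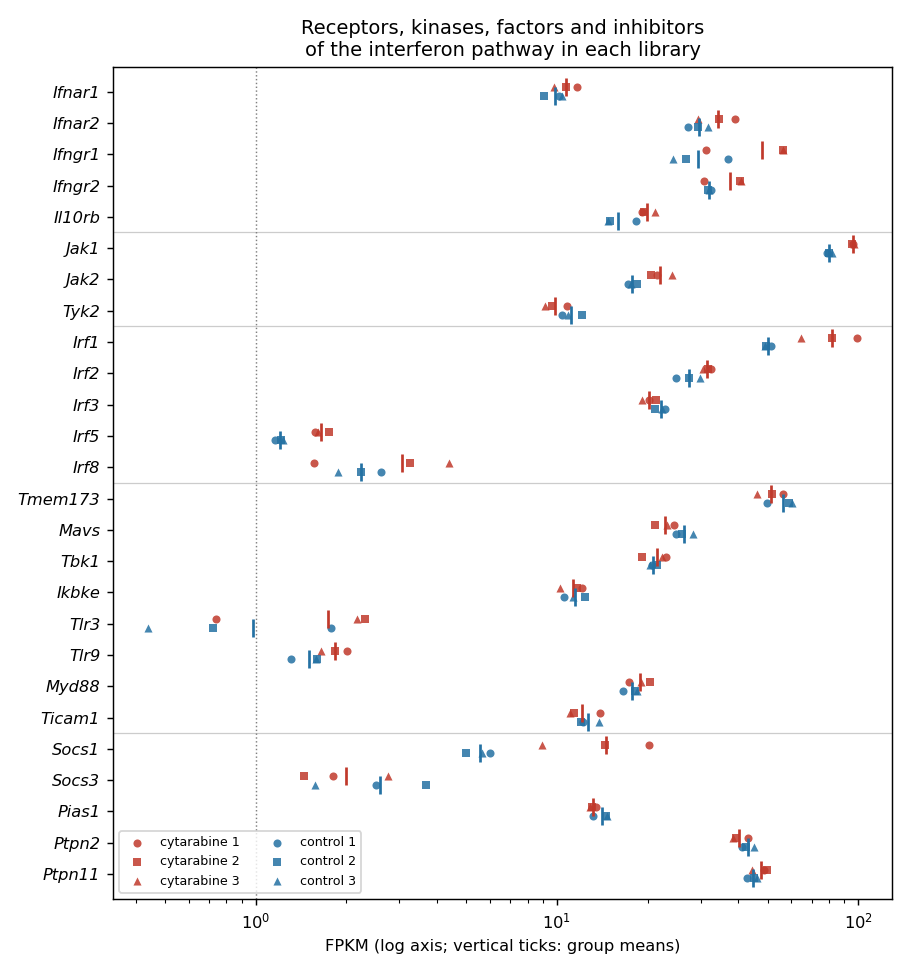
FPKM (log axis) of tested receptors, kinases, transcription factors, adaptors and inhibitors of the interferon pathway in cytarabine 1 to 3 (red) and control 1 to 3 (blue), with group means as vertical ticks. Irf1, Socs1, Jak1 and Jak2 have all red points to the right of the blue ones, while Mavs has them to the left.

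Of cells that could add such transcripts, plasmacytoid dendritic cells had markers at unlike levels. Siglech, Ccr9 and Pacsin1 were under 1 FPKM in every library. Cox6a2 was at 11.3, 14.2 and 16.03 FPKM across cytarabine 1 to 3, against 21.4, 24.2 and 31.6 FPKM across control 1 to 3. It was the 1 marker of the list lower in every cytarabine library than in any control. The 7 markers of these cells summed to 37.3 to 356 FPKM under cytarabine and 31.9 to 169 FPKM in controls, most of it from Klk1 in libraries with much colon transcript. B cell markers, 6 listed, summed to 6.67 to 14.8 FPKM under cytarabine and 6.16 to 7.76 FPKM in controls, and erythroid markers, 6 listed, to 14.1 to 105 FPKM under cytarabine and 17.6 to 26.96 FPKM in controls. T cell markers summed to 588 to 789.9 FPKM under cytarabine and 707 to 857 FPKM in controls, and smooth muscle markers to 123 to 1181 FPKM under cytarabine and 24.7 to 962 FPKM in controls. The part of these cells in the members' values was not tested.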

How the data were processed

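The members, lists and tests were chosen with earlier results of these data known. The authors sequenced stranded TruSeq mRNA libraries as single-end reads of 75 bases, mapped them to mm10 with TopHat2 2.0.13, Bowtie2 2.2.3 and SAMtools 0.1.19, and used Cufflinks 2.2.1 for the deposited FPKM of each gene. The versions follow the submitters' processing notes, and the gene annotation is not given in the sources used here. Groups and replicate numbers came from the sample records.

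From the deposited FPKM, log2(FPKM + 1) was modelled in R 4.3.3 using limma 3.58.1 (lmFit, then trended eBayes, two-sided). P-values were adjusted by Benjamini-Hochberg over the 11703 genes averaging 1 FPKM or more. Medians of the ratios between libraries were already equal, with factors of 1.004 to 1.006. Every tested member was named, with values by library for those at an unadjusted p under 0.05, those without overlap, transcription factors and the 3 most abundant. Other members' values were added. Pathway genes named were those at an unadjusted p under 0.05 and Ifnar1, Ifnar2, Ifnb1 and Ifng, and 1 further gene of that list is not reported here. Library totals were inferred from low FPKM of single-transcript genes of GENCODE M21, assuming fragments of 200 bases, and 67.7% to 73.0% of the values used lay within 0.1 of a whole read. They carry the authors' scaling. Shared stretches of 75 bases were counted in GENCODE M21 transcripts. Promoters came from RefSeq, and 27 of 38 members matched. A count test was not run because FPKM are not counts. Same-numbered libraries were separate mice. Plots used matplotlib 3.10.9 and Python 3.11.15.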

Additional observations from a re-analysis of the deposited data

How the results depend on the processing

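The count of 7 higher members stayed within 1.5 times under the other pseudocount, the other filters, sums per library, median-of-ratios factors and eBayes settings, and became 4 with quantile normalization (median log2 fold change 0.16), 14 with the second colon division and 13 with the colon covariate. With no filter 1 member, Oas2, was lower at an unadjusted p under 0.05. Leave-one-out fits called 6 to 9 members higher and 0 to 1 lower (Bst2, without cytarabine 1), with a median of 0.24 to 0.36. In them 4 to 8 other pathway genes were higher, against 5 with all libraries and 9 with the second colon division. Without cytarabine 1, 17.5% of all genes were higher and 17.4% lower. In that fit 8 of 35 members (22.9%) and 8 of 27 pathway genes (29.6%) were higher. In the other leave-one-out fits 5.02% to 8.74% of all genes were higher. Genes of the whole table with an adjusted p under 0.05 from limma were 0 with all libraries, 1 with a pseudocount of 0.1, 2 without the trend, 1 with the robust trend, 4 with the widest-gap division, 379 with the second, 2 of them members, and 0 to 6 in the leave-one-out fits. Those at an unadjusted p under 0.05 were 2038, 964 with the widest-gap division and 1176 to 4111 in the leave-one-out fits, most without cytarabine 1. The cause was not tested.

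Adding a replicate block left 994 genes at an unadjusted p under 0.05, with 5 members (14.7%) higher, against 4.09% of all genes. Deviations of same-numbered libraries correlated at -0.709, -0.247 and -0.594, so no positive correlation marked the numbers as pairs. These values cannot exclude a shared batch, as the libraries also differed in transcript of other tissues. Log2 fold changes that changed sign were, with quantile normalization, Ifit1 -0.14, Oasl2 -0.16. With the widest-gap division they were Adar 0.10, Ifi204 0.084, Ifit1 -0.026, Irf7 -0.21, Irf9 0.13, Oas1a -0.030, Oasl1 -0.12, Oasl2 -0.17. With the second division they were Adar 0.028, Irf9 0.067, Oasl2 -0.042, while Parp14 at 0.92 and Parp9 at 0.55 passed the adjusted threshold. With the colon covariate they were Adar 0.14, Bst2 0.086, Ifit1 -0.049, Irf7 -0.37, Irf9 0.21, Oas1a -0.17, Oasl1 -0.46, Oasl2 -0.22. In the leave-one-out fits the range crossed 0, at -1.51 to 0.026 for Ifi27l2a, -0.050 to 0.13 for Ifi35, -0.22 to 0.047 for Irf9, -0.15 to 0.053 for Adar, -0.28 to 0.040 for Bst2, -0.11 to 0.42 for Ifit1, -0.0054 to 0.65 for Isg15 and -0.24 to 0.28 for Oasl2. The other 707 values of named genes kept their direction and side of the threshold. On a transcript of 2000 bases, 3 reads equal 0.0884 to 0.145 FPKM. Ifi44 lay in this range in cytarabine 1 and 2, at 0.113 and 0.117 FPKM, so counting error limits these values most. Mx2, from 0.235 FPKM, and Oas2, from 0.288 FPKM, lay above it but averaged under 1 FPKM.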
